A study of Mus musculus with 4 samples.

Results

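The genes of COPII and COPI vesicle transport, with their cargo receptors and tethers, were described in primary cultured mouse astrocytes with and without OASIS. They were chosen by name: 46 names of coat subunits, GTPases, receptors, tethers and SNAREs were matched to a GENCODE annotation of GRCm38, by a rule that uses no measured value, although the list was drawn up with earlier results of these data known. Of these names 45 matched 1 gene each, among 55487 genes in the tables. The name Sec12 is that of the yeast protein whose mammalian counterpart is Preb, which is also listed, and it matched no symbol. A mean of at least 1 CPM (the count scaled to library size) over the 4 libraries was reached by 44 of the 45, and by 15596 of all genes. The gene below it was Sec31b, a second copy of the outer COPII subunit, with 0, 0, 0 and 5 counts. In all, 15 of the 44 belong to the COPII coat and its exit sites, 12 to the COPI coat and its GTPases, 11 to cargo and retrieval receptors, and 6 to tethers and SNAREs.

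RNA was sequenced from 4 libraries, 1 for each combination of a genotype (OASIS wild type or OASIS deficient) and a treatment, so single differences have no replicate check. OASIS is the product of Creb3l1, and no source used here states the allele behind the deficient label, the number of mice behind a culture or their age. Treated cultures, 5 days past confluence, were exposed for 1 h to 1 µg/ml of doxorubicin, a drug that traps topoisomerase II on broken DNA, and were kept for 24 h after the drug was washed out. The other cultures were untreated, and no source used here states how long past confluence they were. The series asks what depletion of OASIS does to expression during the response to DNA damage, and the secretory pathway is among the processes reported downstream of OASIS.

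Proteins made in the endoplasmic reticulum (ER) leave it in vesicles with a COPII coat. The GTPase SAR1, switched on by PREB, recruits SEC23 and SEC24, where SEC24 selects cargo, and SEC13 with SEC31 forms the outer cage. COPI vesicles, coated with coatomer under the GTPase ARF1 and its exchange factor GBF1, carry escaped ER residents and empty receptors back. OASIS sits in the ER membrane until proteases in the Golgi release its N-terminal part, which enters the nucleus as a bZIP transcription factor. Its relative CREB3L2 is known to drive Sec23a in cartilage, and OASIS itself is known for collagen secretion in bone. Astrocytes secrete matrix, growth factors and lipoproteins along this route.

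The targeted gene was reduced and not absent. Creb3l1 stood at 48.5 CPM (untreated) and 27.8 CPM (doxorubicin) in wild type and at 15.1 and 11.9 CPM in deficient cells. Both deficient libraries were below both wild type ones, and their 260 and 235 counts were far above the limit of 3 counts that a count of 0 allows. No source used here states which part of the gene the deficient label removes, so these counts do not show whether working mRNA was made.

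The libraries differed by more than their labels state. Xist, transcribed from the inactive X chromosome, was at 0.05 and 0 CPM in the untreated libraries and at 111 and 139 CPM in the doxorubicin libraries, while Ddx3y on the Y chromosome was at 78.7 and 43.1 CPM in the untreated and 0 in the doxorubicin libraries. Doxorubicin and the sex of the source mice therefore cannot be told apart in any comparison below. Of 20 listed p53 target genes, 17 were at least 1.5-fold lower in deficient than in wild type untreated cells (21.1% of all genes). The median log2 ratio of the list was -2.07 (-2.22 with doxorubicin). The mitosis list was higher by 1.5-fold or more in 20 of 20 genes in both deficient libraries (19.6% and 20.7% of all genes). Its median log2 ratios were 3.60 and 4.04. Against untreated cells, the p53 list had median log2 ratios of 0.12 in wild type and 0.15 in deficient cells with doxorubicin. The mitosis list had medians of 0.283 and 0.525. Of its 20 genes, 7 were at least 1.5-fold higher and 4 lower with doxorubicin in wild type (11% and 13.6% of all genes). In deficient cells 9 were higher and 0 lower (6.59% and 6.75%). Both lists thus split mainly by the genotype label, with little split of the p53 list by the treatment label. Whether the labels match the libraries is in doubt. Every genotype and doxorubicin ratio below is a ratio of libraries so labelled. Total counts were 17481188 to 22559613, which put the floor of 3 counts at 0.131 to 0.174 CPM.

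Several lists of cell type markers also moved with genotype. The cultures carried astrocyte genes in every library: Gfap ran from 1120 to 6589 CPM and Aqp4 from 389 to 1252 CPM. The 10 astrocyte markers summed to 3747 to 3856 CPM in wild type and 9706 to 10999 CPM in deficient libraries. In deficient cells 7 of 10 (untreated) and 6 of 10 (doxorubicin) were at least 1.5-fold higher (19.6% and 20.7% of all genes). Gjb6 was at 0 in wild type untreated. The 10 oligodendrocyte lineage markers summed to 335 to 466 CPM in wild type and 1065 to 1069 CPM in deficient libraries. Each was at least 1.5-fold higher in both deficient libraries (19.6% of all genes untreated and 20.7% with doxorubicin). Mog was at 0 in both wild type libraries and at 3.37 and 3.54 CPM in the deficient ones. The 10 neuron markers summed to 201 to 228 and 408 to 437 CPM, with Dcx and Snap25 at 0 in both wild type libraries. Of the 8 with a mean of at least 1 CPM, 6 were higher in both deficient libraries than in both wild type ones (31.2% of all genes). Only 1 was lower in both (30.8% of all genes). It was Nefl, at 3.11 and 1.48 CPM in wild type and 0.697 and 0 CPM in deficient libraries. The 10 microglia markers summed to 609 to 842 CPM in wild type and 524 to 820 CPM in deficient libraries, the lower value of each pair being the doxorubicin library. Csf1r and Itgam, 2 of the 10, were lower in both deficient libraries than in both wild type ones (30.8% of all genes). Tmem119 was the 1 that was higher in both (31.2%). The 10 fibroblast and meningeal markers summed to 949 to 1168 and 955 to 1023 CPM. Lum and Dpt were at 0 in both wild type libraries and below the minimum of 1 CPM over the 4. Of the 8 past it, 2 were lower in both deficient libraries than in both wild type ones and 0 were higher (30.8% and 31.2% of all genes). The lower ones were Fn1 (790 and 737 against 694 and 665 CPM) and Foxc1 (16.8 and 13.3 against 7.38 and 10.8 CPM). The 10 endothelium and pericyte markers summed to 19.9 to 22.5 and 8.14 to 10.2 CPM. Cdh5 was at 0 in both wild type libraries, and Tek and Cldn5 were at 0 in both deficient ones. Of these, Cdh5 and Cldn5 were below the minimum of 1 CPM. Among the 4 markers past it, 3 were lower in both deficient libraries and 0 were higher (30.8% and 31.2% of all genes). The part of these shifts in the results below was not tested, and in bulk RNA fewer cells of a type and less RNA per cell cannot be told apart.

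Promoters of the members were searched for 3 binding sequences of ER-linked bZIP factors, on both strands of 300 bases per gene (250 before and 50 after the RefSeq start, build GRCm38.p6). A promoter was given for 41 of the 45 genes and not for Arcn1, Lman1, Kdelr2 and Tmed2. The unfolded protein response (UPR) element TGACGTGG (CCACGTCA on the other strand), a known binding sequence of XBP1 and ATF6, was in 9 of the 41, or 22%. The same letters were in 0.714% of 27025 genes with a promoter, in 1.06% of 11128 such genes that passed the CPM minimum, and in 2 of 53 other genes of the early secretory pathway (3.77%). These matches are shown because the choice of members did not use them; the other 32 promoters held none. The motif is in capitals within 30 bases, read along the gene.
Sec23a: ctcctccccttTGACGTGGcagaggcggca
Sec24d: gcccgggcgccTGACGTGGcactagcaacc
Sec16b: ttctgtgtggcTGACGTGGcacggcagttt
Copb1: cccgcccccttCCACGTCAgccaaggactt
Copb2: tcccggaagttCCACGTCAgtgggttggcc
Arf1: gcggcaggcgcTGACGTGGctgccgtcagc
Gbf1: gaggctagttaCCACGTCAgtgagctgaca
Kdelr3: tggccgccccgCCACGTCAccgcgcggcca
Stx5a: tggcgcagcagCCACGTCAccgagttagga

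The Sec23a match lies at chr12:59011993-59012022 on the minus strand, and that of Copb2 at chr9:98563713-98563742 on the plus strand. Stx5a held a second match. All 9 genes held a match that began within 50 bases of a RefSeq start: Copb2 held it 7 bases before, Gbf1 12 and Sec24d 26. The cAMP response element TGACGTCA, which reads the same on both strands, overlaps the UPR element in its first 6 letters and is a known binding sequence of the CREB family, was in 2 of 41 members (4.88%, against 3.57% of genes past the minimum). Both matches are shown for the contrast in letters.
Cope: gcggaggaatgTGACGTCAcggagagaccc
Gosr2: gggggaggctcTGACGTCAgtgcctcgcga

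The ER stress element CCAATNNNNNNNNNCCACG (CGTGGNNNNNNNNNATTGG on the other strand), which shares CCACG with the UPR element, was in 0 of 41 members and in 7 of 16 ER chaperone genes (43.8%), against 0.137% of all genes with a promoter. The ER chaperones in turn held 0 UPR elements. A match is a description of the letters and no evidence of binding.

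As a group, the vesicle genes were close to level in all 4 libraries. They took 0.604 to 0.639% of the counts, and their summed TPM (a level scaled for transcript length) was 4488 (untreated) and 4234 (doxorubicin) in wild type and 4101 and 4199 in deficient cells. The median log2 ratio of deficient to wild type over the 44 was -0.10 untreated and 0.01 with doxorubicin, against -0.03 and 0.02 over all genes. Untreated, 24 of the 44 were below 0, and with doxorubicin 20, where 8088 and 7566 of all 15596 genes were. The most abundant members were the GTPases Arf1 at 400 to 445 CPM and Arf4 at 360 to 485 CPM, and the scarcest that passed was Sec16b at 2.17 to 5.28 CPM.

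**Figure D1:**
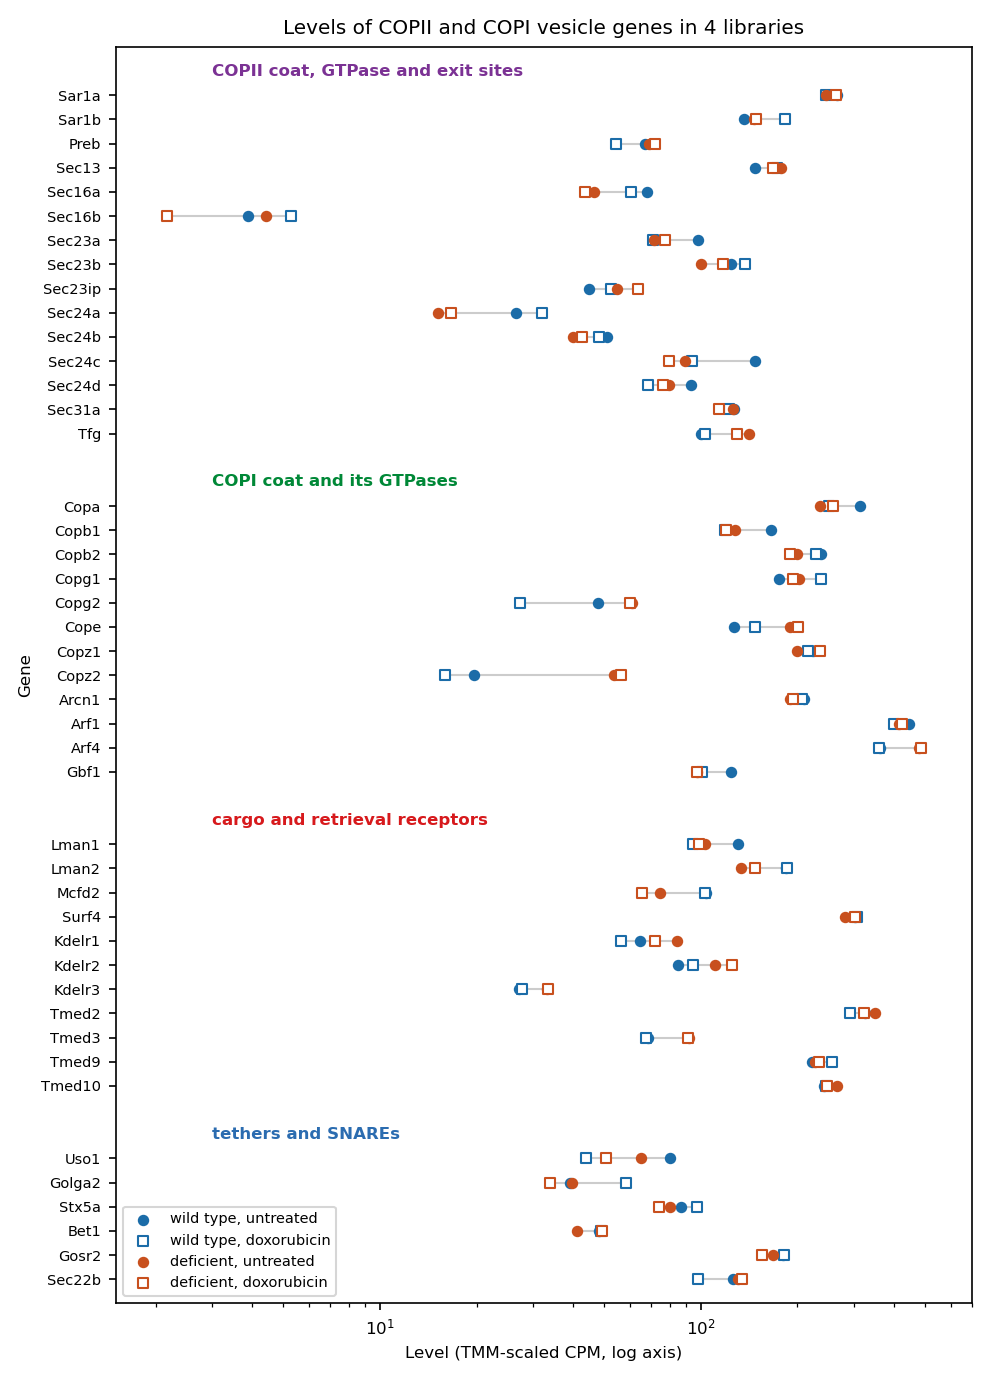
Level of each of the 44 genes in the 4 libraries, as TMM-scaled CPM on a log axis, grouped by role; blue marks wild type, orange marks deficient, filled circles mark untreated and open squares doxorubicin, and the grey line joins the lowest and the highest library. Most genes span a narrow range, while Copz2 (16.0 to 56.3 CPM), Copg2 (27.4 to 61.2), Sec24a (15.2 to 32.1) and Sec16b (2.17 to 5.28) span wide ones.

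Few members differed by size between the genotypes, while many genes did. Untreated, 2 of the 44 were at least 1.5-fold lower in the deficient library (Sec24a and Sec24c), where 21.1% of all genes were, and 1 was at least 1.5-fold higher (Copz2), where 19.6% were. With doxorubicin 4 were lower (Sec24a, Sec16b, Golga2 and Mcfd2; 18.9% of all genes) and 2 higher (Copz2 and Copg2; 20.7%). At 2-fold, no member was lower in either comparison (10.2% and 9.55% of all genes), while Copz2 untreated (9.79%) and Copz2 and Copg2 with doxorubicin (10.7%) were higher. In either direction the members past 1.5-fold were 6.82% untreated and 13.6% with doxorubicin, against 40.7% and 39.6% of all genes. Low genes have a wider counting error, so the shares were repeated over genes with a mean of at least 50 CPM, a minimum chosen after seeing the data. Among these, 1 of 36 members was past 1.5-fold in each genotype comparison (2.78%), against 27.3% and 25.4% of 4458 genes.

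**Figure D2:**
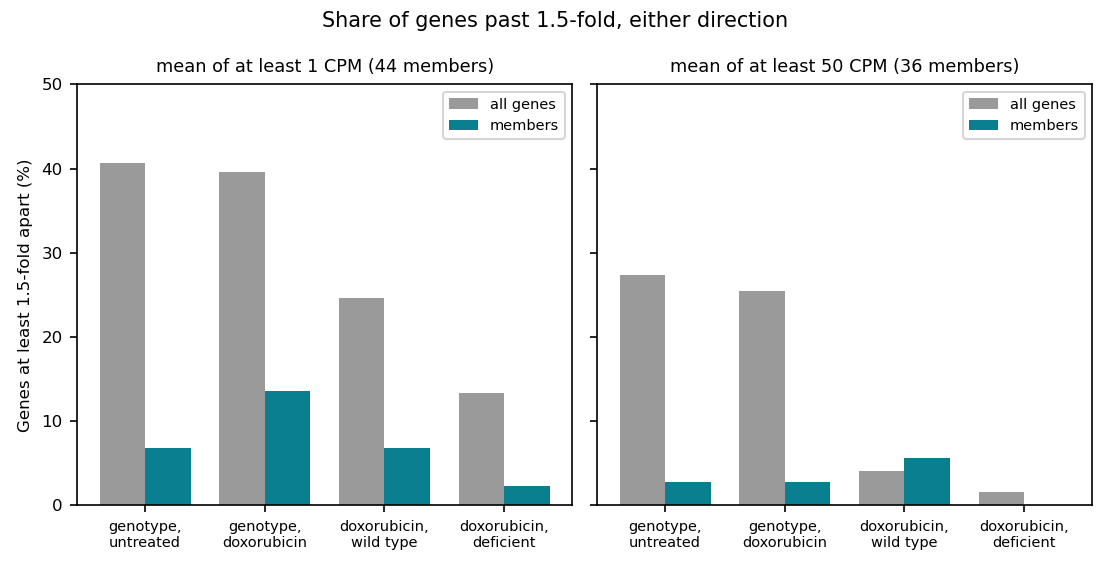
Percent of genes at least 1.5-fold apart in either direction in the 4 comparisons, for all genes (grey) and for the vesicle genes (teal), with a minimum mean of 1 CPM on the left and 50 CPM on the right. In both genotype comparisons the bars of the vesicle genes are lower (6.82 and 13.6% on the left, 2.78% on the right) than those of all genes (40.7 and 39.6%, 27.3 and 25.4%).

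The order of the libraries gave a different view from the size. In 13 of the 44 members both deficient libraries were below both wild type libraries (30.8% of all genes), in 13 both were above (31.2%), and in 18 the genotypes overlapped. Those shares of members are near the background. On the deposited TPM scale the split was 23 below and 8 above, where that of all genes was 38.9 and 23.4%. The TPM scale moved the median log2 genotype ratio of all genes by -0.18 untreated and -0.10 with doxorubicin, and relative to that median the split of members was 8 below and 12 above, where 27.7% and 33.3% of all genes were.

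An additive model of genotype and treatment over the 4 libraries (edgeR's quasi-likelihood test, Benjamini-Hochberg adjusted over 15596 genes, called at an adjusted p of at most 0.05) called 4 members lower in deficient cells (10.6% of all genes) and 5 higher (12.6%). The lower ones were Sec24a, Sec24c, Lman2 and Mcfd2, and the higher ones Tfg, Copg2, Cope, Copz2 and Arf4. Together they are 20.5% of the members, where 23.2% of all genes were called, so the share of calls is near the background. With 1 residual degree of freedom, a gene's own spread in this model is the dependence of the genotype difference on treatment, together with noise. Sex cannot be told apart from treatment here. The test weighs that spread with 14.3 prior degrees of freedom drawn from all genes. Nothing in the labels says that the libraries of a genotype came from separate animals.

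**Figure D3:**
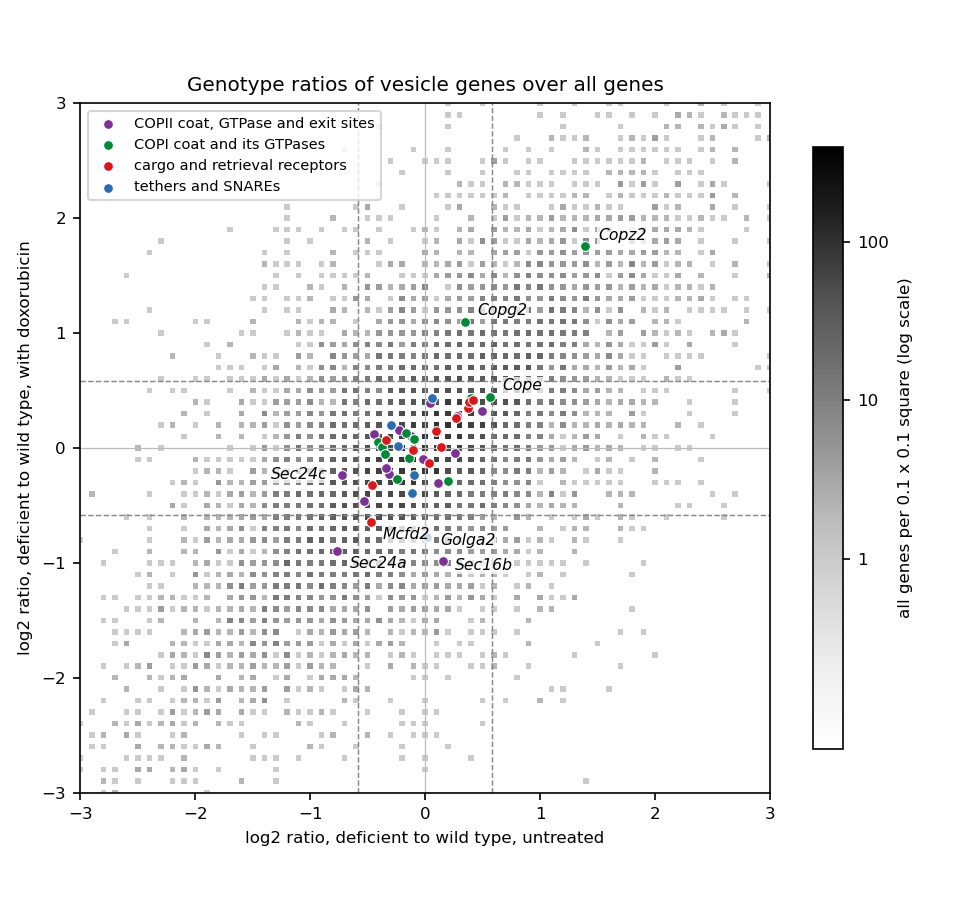
Log2 ratio of deficient to wild type, untreated on the x axis and with doxorubicin on the y axis, for 44 vesicle genes coloured by role over all 15596 genes counted in squares of 0.1 (grey, log scale; 248 genes lie beyond the axes); dashed lines mark 1.5-fold. Copz2 lies at 1.40 and 1.75 and Sec24a at -0.77 and -0.90, and most other members lie between the dashed lines.

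In the COPII coat, the called genes were Sec24a and Sec24c, which select cargo, and Tfg at the exit sites. Sec24a (ENSMUSG00000036391.16, chr11:51692264-51763634) was at 26.6 CPM (untreated) and 32.1 CPM (doxorubicin) in wild type and at 15.2 and 16.7 CPM in deficient cells. Both deficient libraries were lower, at 0.572 times wild type untreated (95% interval 0.491 to 0.664, counting error only) and 0.521 times with doxorubicin (0.457 to 0.594). Its additive log2 difference was -0.87 ± 0.277 (SE), with an adjusted p of 0.032 in edgeR's quasi-likelihood test and of 0.0154 to 0.081 over 6 alternative fits, of which DESeq2 and the fit without a CPM minimum missed the threshold.

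Sec24c, the most abundant of the SEC24 genes by TPM in 3 of the 4 libraries, stood at 148 CPM in the wild type untreated library, at 94.1 CPM in that with doxorubicin, and at 89.2 (untreated) and 79.7 CPM (doxorubicin) in deficient cells. The wild type untreated library was the one apart from the other three. The deficient to wild type ratio was 0.603 untreated (0.567 to 0.642) and 0.847 with doxorubicin (0.793 to 0.904), and on the TPM scale the genotypes overlapped, at 33.6 in wild type with doxorubicin and 33.8 in deficient untreated. The additive difference was -0.49 ± 0.158 (edgeR's quasi-likelihood test, adjusted p = 0.036, 0.00791 to 0.136 over the alternatives). Sec24c shares 3.4% of its exonic bases with 6230400D17Rik on the other strand, which was at 1.86 to 3.19 CPM. Sec24b was at 50.9, 48.1, 39.9 and 42.5 CPM in the same library order, and Sec24d at 93.1, 68.5, 79.6 and 76.3 CPM, and neither was called.

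The scaffold Sec16a, which marks the ER exit sites, was at 67.8, 60.4, 46.5 and 43.5 CPM. Both deficient libraries were lower, with an additive log2 difference of -0.51 ± 0.187 that missed the threshold (edgeR's quasi-likelihood test, adjusted p = 0.0624) and passed it in 2 of 6 alternatives. Its shorter relative Sec16b had 77, 121, 76 and 43 counts, or 3.87, 5.28, 4.42 and 2.17 CPM, and the deficient doxorubicin library was the low one. Tfg, which organises the exit sites, moved the other way: 100 and 103 CPM in the wild type libraries and 141 and 130 CPM in the deficient ones. Its additive difference of 0.41 ± 0.140 was called (edgeR's quasi-likelihood test, adjusted p = 0.0436) and lost in 3 of 6 alternatives.

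None of the SAR1 and SEC23 genes was called. Sar1a stayed between 245 and 266 CPM, and Sar1b was at 136, 183, 146 and 149 CPM. Sec23a, the CREB3L2 target in cartilage named above, was at 97.8 CPM in wild type untreated and at 70.8, 71.7 and 77.4 CPM in the other libraries, so the genotypes overlapped. Sec23b was at 124, 137, 99.9 and 117 CPM, lower in both deficient libraries without a call (additive log2 difference -0.27 ± 0.138, edgeR's quasi-likelihood test, adjusted p = 0.182). Sec31a, the outer cage subunit, ran only from 114 to 127 CPM. The other COPII genes, Preb, Sec13 and Sec23ip, had genotype ratios between -0.05 and 0.39 on the log2 scale, and none was called.

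Within the COPI coat the ζ subunit showed the widest difference of all members. Copz2 (ENSMUSG00000018672.15, chr11:96849870-96861203), the scarcer ζ copy, was at 19.7 and 16.0 CPM in the wild type libraries and 53.6 and 56.3 CPM in the deficient ones. The deficient libraries were 2.71-fold (2.41 to 3.06) and 3.52-fold (3.13 to 3.98) higher. The additive log2 difference was 1.63 ± 0.234 (edgeR's quasi-likelihood test, adjusted p = 0.000105), and all 6 alternatives called it. Its partner copy Copz1 was at 224, 216, 199 and 236 CPM, with overlapping genotypes.

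Because Copz2 differed most, its sequence upstream of the start (chr11:96849626-96849869, plus strand, GRCm38.p6 from RefSeq) is given, with CCACG or its reverse CGTGG in capitals. This 5-letter core, common to the UPR and ER stress elements, occurs in the full promoter window of 35.5% of genes, and here 2 times.
Copz2: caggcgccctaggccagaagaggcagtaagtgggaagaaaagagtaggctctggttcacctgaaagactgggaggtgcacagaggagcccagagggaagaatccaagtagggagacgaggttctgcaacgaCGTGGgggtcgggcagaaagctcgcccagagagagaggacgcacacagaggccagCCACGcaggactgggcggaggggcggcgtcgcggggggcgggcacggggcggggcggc

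None of the 3 full elements was in the Copz2 window. Both ζ genes host a microRNA on their own strand outside the annotated exons, Mir152 in Copz2 and Mir148b in Copz1, and the mature 3p forms are shown because they share a seed (bases 2 to 8, in capitals).
miR-152-3p: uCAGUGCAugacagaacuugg
miR-148b-3p: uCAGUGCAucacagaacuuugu

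The mature miR-152-3p lies at chr11:96850439-96850459 and miR-148b-3p at chr15:103285185-103285206. The tables list 0 counts for Mir152 and Mir148b in all 4 libraries, and mature microRNAs were not measured separately.

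The γ subunit changed through its second copy as well. Copg2 (ENSMUSG00000025607.15, chr6:30747554-30896794) was at 47.9 CPM (untreated) and 27.4 CPM (doxorubicin) in wild type and at 61.2 and 60.0 CPM in deficient cells. The wild type doxorubicin library was the low one, and the deficient libraries were alike. The ratio of deficient to wild type was 1.28 untreated (1.17 to 1.40) and 2.19 with doxorubicin (1.98 to 2.41). The additive log2 difference was 0.74 ± 0.222 (edgeR's quasi-likelihood test, adjusted p = 0.0247, 0.00326 to 0.114 over the alternatives). Copg2 shares 17.8% of its exonic bases with Mest on the other strand, reads were not separated by strand, and Mest stood at 195, 265, 215 and 317 CPM, highest in the doxorubicin libraries of each genotype. Copg1, the main γ copy, was at 175, 237, 202 and 194 CPM.

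Cope (ENSMUSG00000055681.14, chr8:70302518-70312993), the ε subunit, was at 127 and 147 CPM in wild type and 189 and 201 CPM in deficient libraries. Arf4, a GTPase of the early Golgi, was at 361 and 360 CPM against 478 and 485 CPM. Both were higher in both deficient libraries and were called in all 6 alternatives, with additive log2 differences of 0.51 ± 0.127 and 0.42 ± 0.103 (edgeR's quasi-likelihood test, adjusted p = 0.00835 and 0.00763). Arf4 shares 14.6% of its exonic bases with Pde12 on the other strand, which was lower in the deficient libraries (21.7 and 30.7 CPM) than in the matched wild type ones (31.8 and 45.5 CPM).

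None of the other coat subunits was called. Copa, the α subunit, was at 313 CPM in wild type untreated and 235 to 259 CPM in the other libraries. Copb1 was at 166 CPM in wild type untreated and 119 to 128 CPM elsewhere. Copb2 was below wild type in both deficient libraries, at 237 and 229 against 200 and 189 CPM, with an additive log2 difference of -0.26 and no call (edgeR's quasi-likelihood test, adjusted p = 0.132). Arcn1, the δ subunit, ran from 189 to 209 CPM. Arf1 and its exchange factor Gbf1 had genotype ratios between -0.35 and 0.08, and neither was called. Of the 12 COPI genes, 4 were thus called higher and 0 lower, where 12.6% and 10.6% of all genes were, and the called coat subunits were the ε subunit and the scarcer γ and ζ copies.

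Among the cargo receptors that bring glycoproteins out of the ER, Mcfd2 and Lman2 were lower in deficient cells. Mcfd2, the calcium-binding partner of the lectin LMAN1 (ENSMUSG00000024150.12, chr17:87254443-87265935), was at 104 and 103 CPM in wild type and 74.4 and 65.7 CPM in deficient libraries. Its additive log2 difference was -0.57 ± 0.155 (edgeR's quasi-likelihood test, adjusted p = 0.0145), and all 6 alternatives called it. Lman1 itself was at 131, 94.5, 103 and 99.0 CPM with overlapping genotypes, so the genes of this receptor pair differed in pattern. Lman2, a related lectin, was at 184 and 186 CPM against 133 and 148 CPM, with a difference of -0.39 ± 0.128 (edgeR's quasi-likelihood test, adjusted p = 0.036) that was lost in 3 of 6 alternatives. Surf4, a receptor for many soluble cargoes, ran from 281 to 306 CPM.

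The KDEL receptors, which bring escaped ER chaperones back, were all higher in CPM in deficient cells, without a call. Kdelr1 was at 64.8 and 56.6 CPM in wild type and 84.1 and 72.1 CPM in deficient libraries, Kdelr2 at 84.6 and 94.3 against 111 and 125 CPM, and Kdelr3 at 27.2 and 27.7 against 33.1 and 33.4 CPM. In each of the 3 both deficient libraries were above both wild type libraries, though on the TPM scale Kdelr1 overlapped. Their additive log2 differences were 0.36, 0.40 and 0.28 (edgeR's quasi-likelihood test, adjusted p = 0.137, 0.0578 and 0.462), and Kdelr2 passed in 3 of 6 alternatives. The p24 proteins, which act as cargo adaptors in both coats, were nearly level except for Tmed3. Tmed3 was at 68.3 and 67.7 CPM against 91.7 and 91.0 CPM (additive log2 difference 0.43 ± 0.158, edgeR's quasi-likelihood test, adjusted p = 0.0635), while Tmed2, Tmed9 and Tmed10 had log2 genotype ratios between -0.13 and 0.15.

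Of the 6 tethers and SNAREs none was called. Golga2, the cis-Golgi tether GM130, was at 39.1, 58.5, 39.6 and 33.8 CPM, and wild type with doxorubicin was the high library. The ratio of deficient to wild type was 1.01 untreated (0.914 to 1.13) and 0.578 with doxorubicin (0.526 to 0.634). Golga2 shares 1.78% of its exonic bases with Swi5 on the other strand. Uso1, the tether p115, was at 79.9, 44.0, 65.0 and 50.8 CPM, lower in the doxorubicin library of each genotype. The SNAREs of fusion at the Golgi, Stx5a, Bet1, Gosr2 and Sec22b, had log2 genotype ratios between -0.39 and 0.44. Sec22b had the upper of these, at 126, 98.3, 131 and 134 CPM, where the wild type doxorubicin library was low.

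Doxorubicin, together with the sex difference noted above, moved few vesicle genes. In wild type 3 of 44 were at least 1.5-fold lower (Uso1, Copg2 and Sec24c), where 13.6% of all genes were, and 0 were higher, where 11% were. Uso1 was at 0.551 times its untreated level (0.508 to 0.596), Copg2 at 0.573 (0.517 to 0.634) and Sec24c at 0.637 (0.602 to 0.673). In deficient cells 1 was lower, Sec16b at 0.492 times (0.331 to 0.725; 6.75% of all genes), and 0 were higher (6.59%). The additive doxorubicin test in edgeR called 0 members, and of all genes it called 0.141% lower and 0.0192% higher. At an unadjusted 0.05 it held 2 members, Uso1 and Sec24c, and 864 genes, and DESeq2 and limma-voom called 0 members too. Uso1 had an additive log2 difference of -0.61 (adjusted p = 0.558 in edgeR's quasi-likelihood test, 0.133 to 1.0 over the alternatives).

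**Figure D4:**
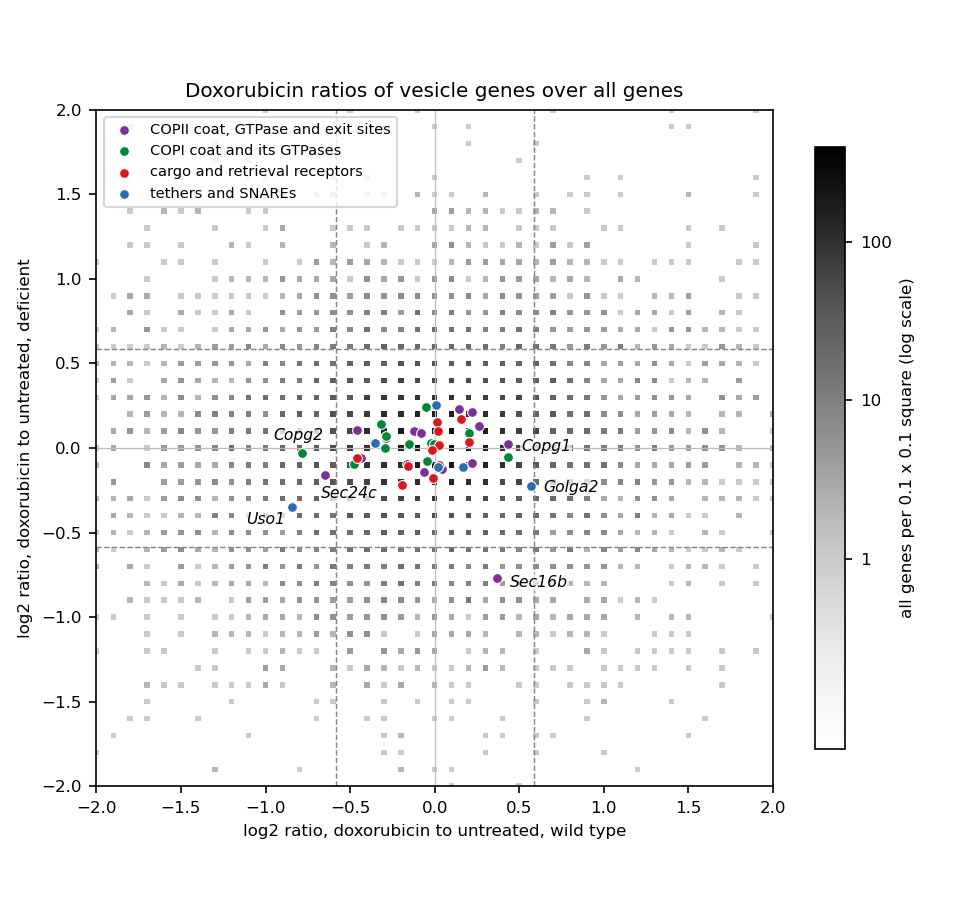
Log2 ratio of doxorubicin to untreated, wild type on the x axis and deficient on the y axis, for 44 vesicle genes coloured by role over all 15596 genes counted in squares of 0.1 (grey, log scale; 178 genes lie beyond the axes); dashed lines mark 1.5-fold. Uso1 (-0.85), Copg2 (-0.78) and Sec24c (-0.65) lie left of the wild type line, and Sec16b (-0.77) lies below the deficient line.

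The response to doxorubicin in deficient cells minus that in wild type was at or past 1.5-fold downward in 2 members, Sec16b (-1.14) and Golga2 (-0.79), where 13.6% of all genes were, and upward in 1, Copg2 (0.75), where 17.5% were. With 1 library per combination this difference has no test. The median difference over the members was 0.05, against 0.02 over all genes.

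Paralogue shares are given on the TPM scale, since TPM accounts for transcript length and so allows levels of different genes to be compared. Copz2 made up 16.3% (untreated) and 14.1% (doxorubicin) of the summed COPZ TPM in wild type, and 37.5 and 34.5% in deficient cells. Both deficient libraries held a larger share, and the sum itself was 241, 218, 250 and 291 TPM. On CPM, without the length, the mean share differed by 12.7 percentage points and not 20.8. In the COPG pair Copg2 held 21.7, 9.88, 22.5 and 23.1%, with the sum between 96.0 and 101 TPM, and the wild type doxorubicin library was the one apart; it also held the highest Copg1 level, 237 CPM.

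Sec24a held 6.27, 11.1, 4.42 and 5.93% of the SEC24 sum, Sec24b 18.6, 18.0, 19.0 and 20.7%, Sec24c 44.0, 37.5, 41.0 and 36.5%, and Sec24d 31.1, 33.5, 35.5 and 36.8%. The sum ran at 128 (untreated) and 89.6 TPM (doxorubicin) in wild type and at 82.4 and 76.7 TPM in deficient cells. Sec24c and Sec24d were thus the main copies in every library. Sec23b made up 64.6 to 73.0% of the SEC23 sum and Sar1b 56.7 to 65.2% of the SAR1 sum, with overlapping genotypes in both. The KDEL receptor shares were stable, Kdelr1 at 44.1 to 51.7%, Kdelr2 at 34.1 to 41.6% and Kdelr3 at 13.5 to 14.4%.

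**Figure D5:**
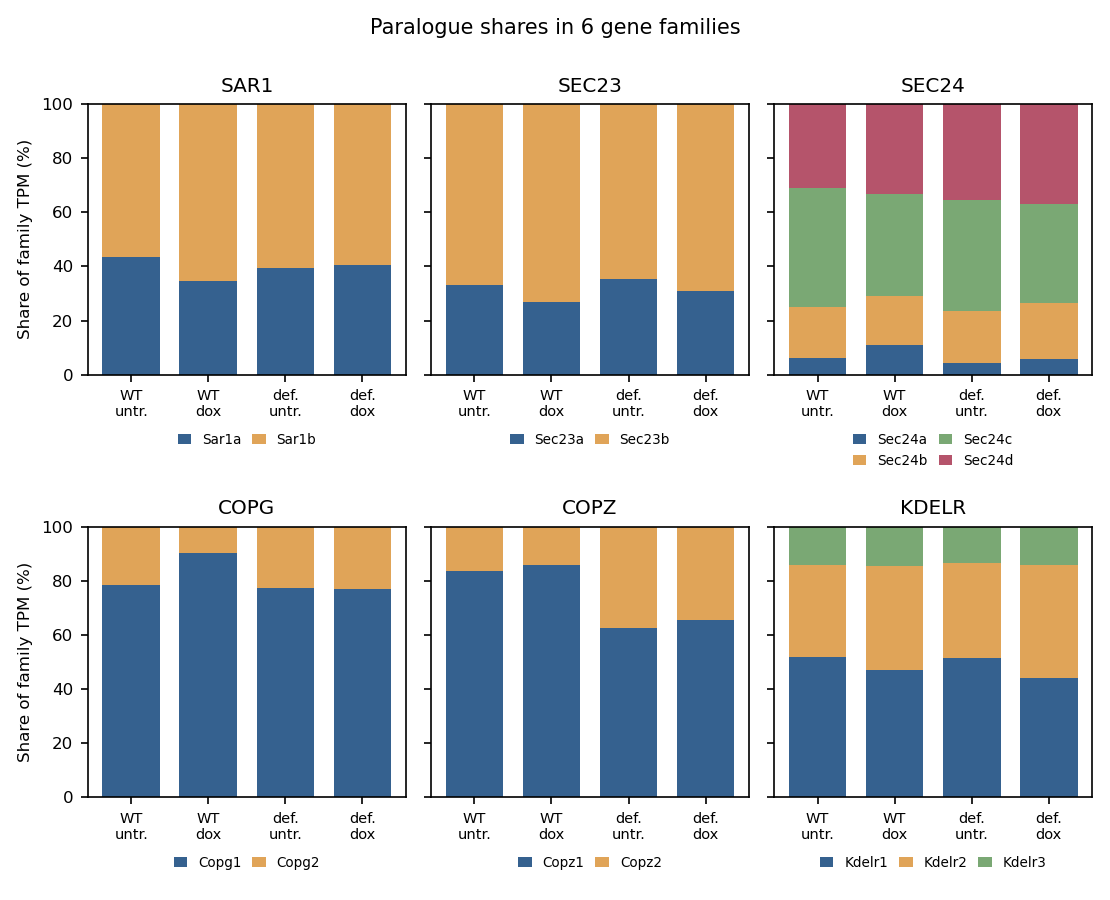
Share of the summed TPM of a gene family held by each copy (percent, stacked to 100) in the 4 libraries, for 6 families; WT is wild type, def. deficient, untr. untreated and dox doxorubicin. The Copz2 share is 37.5 and 34.5% in the deficient libraries against 16.3 and 14.1% in wild type, and Copg2 drops to 9.88% in wild type with doxorubicin.

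Other genes of the early secretory pathway, a list of 61 that does not overlap the members, had 60 past the minimum, with median log2 genotype ratios of -0.03 untreated and -0.04 with doxorubicin. The additive test called 5 of the 60 lower and 4 higher in deficient cells, where 10.6% and 12.6% of all genes were. The named ones are the 4 with the widest mean genotype ratio. Trappc9, a subunit of a TRAPP tethering complex, was at 31.0 and 34.4 CPM in wild type against 76.6 and 76.9 CPM in deficient libraries (edgeR's quasi-likelihood test, adjusted p = 0.000199). Bet1l, a Golgi SNARE, was at 66.8 and 57.1 against 28.6 and 24.6 CPM (adjusted p = 0.000496 in the same edgeR test). Bnip1, a SNARE of COPI vesicle arrival at the ER, was at 8.54 and 9.04 against 18.3 and 23.5 CPM, and Yif1b, a Golgi membrane protein, at 45.5 and 54.4 against 97.4 and 112 CPM (edgeR's quasi-likelihood test, adjusted p = 0.0163 and 0.000166).

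The membrane-bound bZIP and UPR factors, a list that includes the proteases Mbtps1 and Mbtps2, were counted beside the members. Whether they act on the members was not tested. Of 12, 11 passed the minimum, and the additive test called 1 lower and 2 higher, where 10.6% and 12.6% of all genes were. The lower one was Creb3l1 (additive log2 difference -1.46 ± 0.270, edgeR's quasi-likelihood test, adjusted p = 0.000973). Creb3l2, its nearest relative in this list, was at 25.2 and 28.3 CPM in wild type and 38.2 and 46.6 CPM in deficient libraries, and Xbp1 at 53.6 and 49.1 against 85.3 and 68.9 CPM (edgeR's quasi-likelihood test, adjusted p = 0.0479 and 0.0254). Xbp1 lies outside the naming rule and was added because it was called, after its values were seen. Ddit3, the stress factor CHOP, was at 30.6 and 31.1 against 15.3 and 24.9 CPM without a call (edgeR's quasi-likelihood test, adjusted p = 0.102). Mbtps2, the protease that makes the second cut of this class of factors, was at 14.9, 9.48, 7.38 and 6.32 CPM without a call (edgeR's quasi-likelihood test, adjusted p = 0.205).

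The members with a promoter match did not stand out in level. Of the 9 with a UPR element, 0 were called by genotype in edgeR's quasi-likelihood test, and Copb2 alone among them passed an unadjusted 0.05. Over all 118 tested genes with that element 9 were called lower and 14 higher, where 10.6% and 12.6% of all genes were. The median log2 genotype ratio of the 9 was -0.22 untreated and 0.01 with doxorubicin, and over the 118 it was -0.07 and 0.05. Of the members with a cAMP response element, Cope was called higher and Gosr2, at 180, 182, 168 and 155 CPM, was not called.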

How the data were processed

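RNA of 4 libraries was measured after preparation with SMART-Seq v4 reagents, per the labels, and reads were not separated by strand. Each table deposited by the authors gives 1 library's genes an estimated count and a level in TPM, per the file headers. The submitters' processing notes list DRAGEN and GRCm38; no source used here states the version, annotation or read filters. Counts held fractions in 5810 to 6451 genes per library and were rounded. Symbols were matched by identifier without version (55227 of 55487). Promoters and microRNAs came from RefSeq tables of GRCm38.p6.

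Counts were scaled to CPM with TMM factors (0.98 to 1.02), and log2 ratios were taken of CPM plus 1, which understates the change of low genes. Ratios were called by size at 1.5-fold and 2-fold among genes with a mean of at least 1 CPM. Their 95% intervals are exact conditional binomial ones. Without molecular identifiers reads are not independent, and these intervals and floors hold counting error alone. The additive models (edgeR quasi-likelihood, Benjamini-Hochberg) have 1 residual degree of freedom and 14.3 prior ones, with a common dispersion of 0.0863. Their p-values reflect only how these libraries spread.

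Members and lists were chosen with earlier results of these data known. Values are given in full for members past 1.5-fold in a comparison, called members and paralogue families, and for up to 4 genes of each other list with the largest mean genotype ratio. Alternatives were DESeq2, limma-voom, DESeq2 size factors, total counts, TPM, pseudocounts of 0.5 and 5 CPM, minimum means of 5 CPM or none, and a model without the other factor. Software was R 4.3.3, edgeR 4.0.16, limma 3.58.1, DESeq2 1.42.0, Python 3.11.15, pandas 2.3.3 and scipy 1.17.1.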

Additional observations from a re-analysis of the deposited data

Results flagged for a closer look

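In Sec16b, an ER exit site scaffold, doxorubicin went with a higher level in wild type (log2 ratio 0.37) and a lower one in deficient cells (-0.77), a difference of -1.14. It rests on 43 to 121 counts per library. In Golga2, the cis-Golgi tether, the ratio was 0.57 in wild type and -0.22 in deficient cells, a difference of -0.79. In both genes the single libraries of the genotypes moved in opposite directions, with a difference past 1.5-fold. Other members also moved in opposite directions, with smaller differences, such as Sec23a (-0.46 in wild type and 0.11 in deficient cells). With 1 library per combination the difference was not tested.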

How the results depend on the processing

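With 1 library per group no replicate could be left out, and no paired analysis was possible because each group holds 1 library and the numbers in the titles follow the treatment. Alternatives were run for the 25 members given in full, not for genes of other lists, and no called value among them reversed. Of their values, 820 ratios stayed within their spread and 50 moved, 47 of them on TPM, and of the additive results 277 kept their side of the threshold, 13 lost the call and 5 gained it. DESeq2 size factors gave 2 members at least 1.5-fold higher by genotype untreated and 1 higher with doxorubicin in wild type. The deposited TPM gave a median member ratio of -0.274 untreated and -0.085 with doxorubicin by genotype, 5 members lower by genotype untreated, 1 higher with doxorubicin in wild type, 0 lower with doxorubicin in deficient cells, 3 with a response difference upward, and genotype groups apart in 23 members lower and 8 higher. With doxorubicin in deficient cells 0 members were lower with a pseudocount of 5 CPM or a minimum mean of 5 CPM, since the count rests on Sec16b, and that minimum left 1 response difference downward. A minimum of 50 CPM, chosen after seeing the data, left 1 member lower and 0 higher by genotype in each treatment and 0 lower with doxorubicin in deficient cells. For genotype, where edgeR called 9 members and 3620 genes, DESeq2 called 5 members (1 lower) and 2946 genes, the fit with no minimum 4 (1 lower, 3 higher) and 2714, the fit without the other factor 5 (2 lower, 3 higher) and 2812, limma-voom 12 and 4265, DESeq2 size factors in edgeR 11 and 4097, and a minimum of 5 CPM 12 and 3895; the cause was not tested. For doxorubicin over all genes, edgeR called 22 lower and 3 higher. DESeq2 called 37 genes, 6 of them higher, and the fit with no minimum 12, 10 of them lower. Calls lower and higher were 67 and 17 in limma-voom and 56 and 22 with DESeq2 size factors in edgeR. They were 73 and 26 with a minimum of 5 CPM, and 0 and 0 in the fit without genotype. On CPM without length the deficient minus wild type share was 6.76 percentage points for Sec24d, 12.7 for Copz2 and -0.953 for Kdelr3 (3.90, 20.8 and -0.33 on TPM).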

Other observations

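ER chaperones were a list of 18 genes, and all passed the minimum of 1 CPM. The additive genotype test in edgeR called 2 lower and 5 higher in deficient cells, where 10.6% and 12.6% of all genes were. The median log2 ratios of deficient to wild type were 0.14 untreated and 0.15 with doxorubicin. Canx, the membrane chaperone calnexin, was at 879 and 798 CPM in wild type and 454 and 470 CPM in deficient libraries (edgeR's quasi-likelihood test, adjusted p = 1.1e-05). Manf, a secreted ER stress protein, was at 80.7 and 94.9 against 170 and 160 CPM, Pdia4, a disulfide isomerase, at 195 and 228 against 341 and 379 CPM, and Dnajb9, a co-chaperone, at 58.4 and 56.1 against 27.4 and 36.9 CPM. Called members of this list thus lay on both sides (edgeR's quasi-likelihood test, adjusted p = 0.000222, 0.000115 and 0.00955 for Manf, Pdia4 and Dnajb9).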
